A study of Mus musculus with 6 samples.

Results

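In all, 10 genes of the type 1 helper (Th1) programme of CD4+ T cells were followed: the cytokine gene Ifng, the receptor genes Il12rb2, Il18r1 and Cxcr3, the signalling gene Stat4, the transcription factor genes Tbx21 and Hlx, and the chemokine genes Ccl3, Ccl4 and Ccl5. They were taken by name from the deposited table, which held all 10 among its 21139 genes. The libraries came from spleen CD4+ T cells of C57BL/6J mice, stimulated for 2 days with antibodies to CD3 and CD28. In 3 libraries the cells also received CpdA, which the design text calls an agonist of the long-chain fatty acid receptor Gpr120, at a dose labelled 20 in a unit spelled "microm", taken to mean µM. In the other 3 libraries the cells had medium alone, with no CpdA. Both groups shared the strain, the tissue and the stimulation, and the growth and treatment protocols in the labels name no polarising cytokine. The sources used here give neither the purification of the CD4+ T cells, nor the sex and age of the mice, nor the compound's vehicle. They do not say whether replicate libraries stem from separate cultures or mice, so the p-values speak only to the spread between these 6 libraries, and that spread may be technical.

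Th1 cells arise when an activated CD4+ T cell receives interleukin 12 (IL-12) and interferon gamma. IL-12 binds a receptor made of the chains encoded by Il12rb1 and Il12rb2 and acts through STAT4. The signals of both cytokines lead to T-bet, the product of Tbx21, which binds at Ifng, at Cxcr3 and at many other Th1 genes, and HLX is a homeobox factor that acts with T-bet. The IL-18 receptor, encoded by Il18r1 and Il18rap, adds to interferon gamma production, and the chemokines CCL3, CCL4 and CCL5 attract other immune cells.

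The promoters of 3 genes of this axis that fell with CpdA are shown because they lie at the centre of the results below: the cytokine gene, the receptor chain that restricts IL-12 signalling and the transducer of its signal. Each run covers 250 bases before to 50 bases after the gene's start site, 5′ to 3′ on the gene's strand, as given by RefSeq for build GRCm38.p6 (Ifng chr10:118440796-118441095, plus strand; Il12rb2 chr6:67376139-67376438, minus strand; Stat4 chr1:51986898-51987197, plus strand). Capitals mark matches to 3 short motifs, searched on both strands.
Ifng promoter: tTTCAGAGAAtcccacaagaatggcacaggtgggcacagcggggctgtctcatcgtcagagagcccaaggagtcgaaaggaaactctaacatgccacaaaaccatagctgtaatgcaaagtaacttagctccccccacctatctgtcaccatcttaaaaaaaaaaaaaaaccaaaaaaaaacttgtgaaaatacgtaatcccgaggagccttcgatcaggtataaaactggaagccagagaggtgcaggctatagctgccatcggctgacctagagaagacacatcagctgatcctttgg
Il12rb2 promoter: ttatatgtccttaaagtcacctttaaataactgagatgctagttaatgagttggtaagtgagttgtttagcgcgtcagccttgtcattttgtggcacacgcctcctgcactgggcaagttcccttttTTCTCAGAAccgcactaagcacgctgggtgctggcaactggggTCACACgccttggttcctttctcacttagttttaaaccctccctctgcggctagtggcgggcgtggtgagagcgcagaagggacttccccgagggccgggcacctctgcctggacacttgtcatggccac
Stat4 promoter: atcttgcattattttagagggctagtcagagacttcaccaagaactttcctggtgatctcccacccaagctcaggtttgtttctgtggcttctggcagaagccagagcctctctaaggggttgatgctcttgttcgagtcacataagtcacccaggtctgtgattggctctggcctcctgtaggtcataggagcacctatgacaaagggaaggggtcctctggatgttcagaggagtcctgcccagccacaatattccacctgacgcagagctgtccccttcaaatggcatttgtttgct
The motifs were the T-box core TCACAC, the STAT motif TTCNNNGAA and the AP-1 motif TGANTCA. The Ifng run holds 1 STAT match and the Il12rb2 run holds 1 STAT and 1 T-box match, while the Stat4 run holds 0 matches to any of the 3. Over 32851 listed mouse start sites the shares with at least 1 match were 8.3% for STAT, 14.5% for the T-box core and 7.81% for AP-1. Of the 10 genes 8 had an entry and 2, Ccl4 and Ccl5, had none. Those 8 genes had 11 listed starts, and the counts that follow are per gene, unlike the shares above, which are per start site. Across these starts, 3 genes had a STAT match (Ifng, Il12rb2 and Il18r1) and 2 had a T-box core (Il12rb2 and Cxcr3). An AP-1 match was found in 0 genes, and 0 of the matches overlapped each other. A match is a string of letters in this window, not a measured binding site.

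With CpdA, 5 of the 10 genes fell and 0 rose: Ifng, Stat4, Il12rb2, Ccl4 and Il18r1. The other 5, Tbx21, Cxcr3, Hlx, Ccl3 and Ccl5, did not pass the threshold. All 5 changes were small, from 6.59% lower for Il12rb2 to 28.7% lower for Il18r1, and the 95% interval of Tbx21, the master regulator, ran from 5.8% lower to 9.55% higher. The threshold was an adjusted p under 0.05 in edgeR's quasi-likelihood test across all 13507 genes tested, and all 10 genes passed its filter on low counts. In that test 33.2% of all genes changed, and 16.7% fell, so a change as such is common in these data. For 5 of the 10 genes every CpdA library lay below every medium library (Ifng, Stat4, Il12rb2, Ccl3 and Ccl4), which held for 21% of all tested genes, and for 43.9% the groups were apart in either direction. The median log2 fold change of the 10 genes was -0.16, beside 0.0004 over all tested genes. The count of 5 was 3 without medium replicate 3, without CpdA replicate 2, without CpdA replicate 3, and with DESeq2. The genes lost were Ccl4 and Stat4 without medium replicate 3, and Ccl4 and Il18r1 in the other 3 settings.

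**Figure D1:**
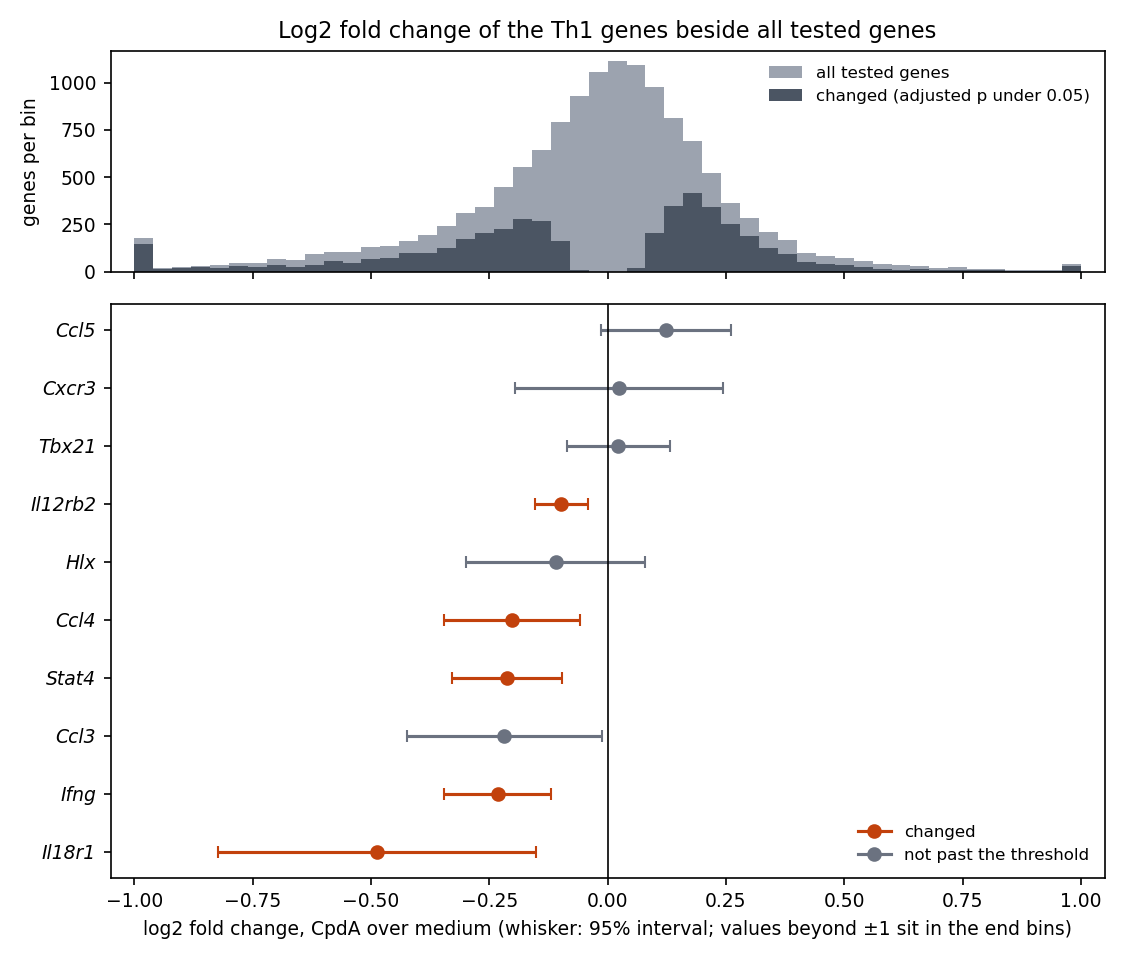
The upper panel counts all 13507 tested genes by log2 fold change of CpdA over medium, with changed genes in dark grey, and the lower panel gives the 10 Th1 genes with 95% intervals, changed ones in orange. The 5 changed genes lie left of 0, from -0.10 for Il12rb2 to -0.49 for Il18r1, and the intervals of Tbx21, Cxcr3, Hlx and Ccl5 span 0.

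Total counts per library lay between 21407172 and 25952169 with CpdA and between 20247761 and 23640735 with medium. Levels are given in CPM, the count scaled by the library total, and in FPKM, which also divides by gene length, where genes are set beside each other. CD4+ T cell markers were high, with Cd4 at 333.8 CPM with CpdA and 380.2 CPM with medium. Among 9 markers of CD4+ T cells, 6 were lower and 1 was higher by the same test. Over all tested genes 16.7% fell and 16.5% rose. The sum of all 9 markers ran from 2280 to 2340 CPM with CpdA and from 2350 to 2400 CPM with medium. Fewer cells of a kind and less RNA per cell cannot be told apart in such bulk libraries.

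By length-adjusted level the genes spanned a wide range. Il12rb2 averaged 171.1 ± 2.1 FPKM with CpdA and 181.9 ± 4.3 FPKM with medium (SD, n = 3 each), far above the rest, and its CPM stood at the 98.2nd percentile of tested genes. Ccl5, Ccl4, Ifng and Tbx21 followed, at 37.6, 28.6, 28.5 and 23.0 FPKM with CpdA and 34.2, 32.6, 33.3 and 22.5 FPKM with medium. Stat4 and Ccl3 had 11.1 and 11.0 FPKM with CpdA and 12.8 and 12.7 FPKM with medium. Cxcr3 and Hlx had 5.29 and 4.80 FPKM with CpdA and 5.19 and 5.14 FPKM with medium. Il18r1 was lowest, at 0.803 ± 0.210 FPKM with CpdA and 1.11 ± 0.14 FPKM with medium. Libraries of neighbouring genes in this order overlapped in both groups for Ccl4 and Ifng, for Stat4 and Ccl3 and for Cxcr3 and Hlx, so the order within these pairs is not larger than the spread, and in medium alone they also overlapped for Ccl5 and Ccl4.

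**Figure D2:**
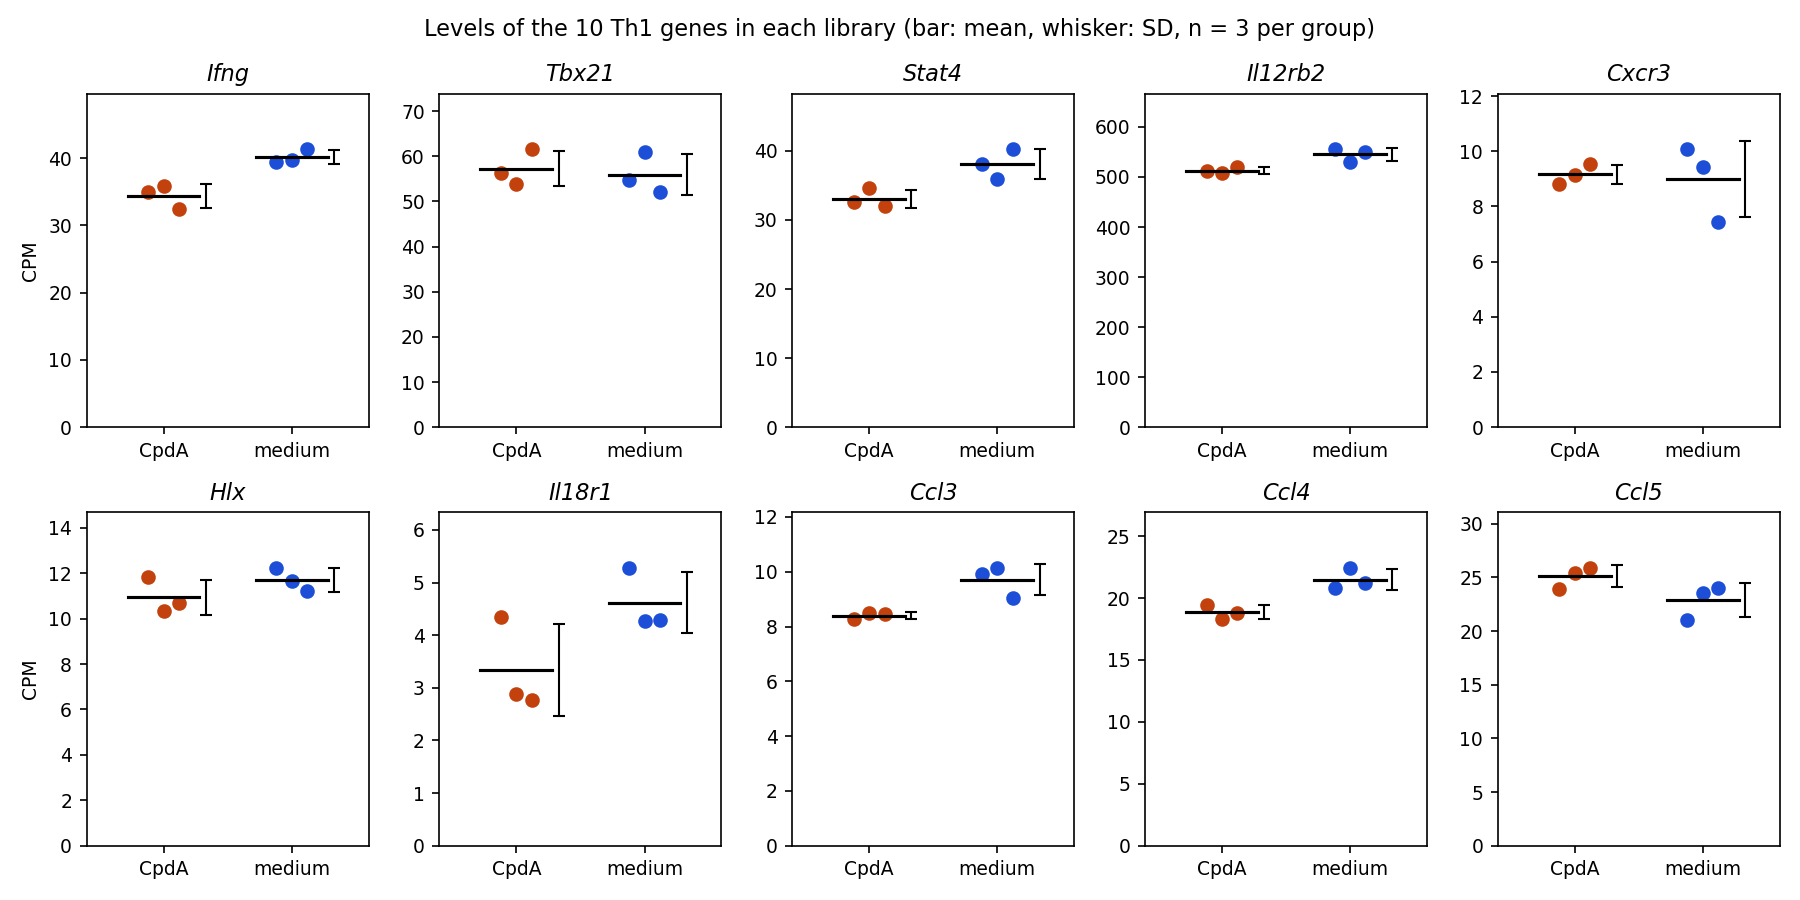
Each panel shows 1 gene in CPM on an axis that starts at 0, with a point per library, CpdA left and medium right, a bar for the mean and a whisker for the SD of 3 libraries. Ifng, Stat4, Il12rb2, Ccl3 and Ccl4 had all 3 CpdA libraries below all 3 medium libraries, and the other 5 genes overlapped.

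Ifng, which encodes the defining cytokine of Th1 cells (chromosome 10, 118441047 to 118445892, GRCm38), had 35.0, 35.8 and 32.4 CPM in the CpdA libraries, against 39.4, 39.7 and 41.3 CPM in the medium libraries. All CpdA libraries lay below all medium libraries, and the highest CpdA library was 3.52 CPM under the lowest medium library. The log2 fold change was -0.23 ± 0.06 (SE; edgeR adjusted p = 0.00106), which is 14.9% lower, with a 95% interval from 21.3% to 7.95% lower. The libraries of a group scattered by 5.17% with CpdA and 2.62% with medium (coefficient of variation), near the 3.47% and 3.35% that counting alone gives at this depth. The GENCODE annotation of GRCm38 places a further transcript, Gm49751, on the same strand over 336 of the 1295 exon bases of Ifng. Reads there cannot be assigned to either by sequence. By the deposited coordinates no listed gene overlaps Ifng, and the nearest lies 146 kb away.

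Of the 3 receptor genes, Il12rb2 and Il18r1 fell and Cxcr3 did not pass, and differences between these genes were not tested. Il12rb2, whose chain is made by Th1 cells and lost from Th2 cells, lies on chromosome 6 (67291318 to 67376188) and had 511.5, 507.4 and 519.7 CPM with CpdA, against 555.7, 530.8 and 549.9 CPM with medium. All CpdA libraries were lower, by a log2 fold change of -0.10 ± 0.03 (SE; edgeR adjusted p = 0.00498), or 6.59%. Between 10949 and 13167 reads per library stand behind each value, and this is the smallest change among the 5 that fell and the one with the narrowest interval, from 10.2% to 2.89% lower. In the GENCODE annotation, though not in the deposited coordinates, exons of Serbp1 on the opposite strand cover 1519 of the 3794 exon bases of Il12rb2. Serbp1, which encodes an mRNA binding protein, had 1015 ± 13 CPM with CpdA and 921 ± 25 CPM with medium (SD, n = 3 each) and rose (log2 fold change 0.13, edgeR adjusted p = 0.000154), the opposite direction. The sources used here do not give the strand setting of the counting, and how many reads of Serbp1 were counted for Il12rb2 was not tested.

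Il18r1, the ligand-binding chain of the IL-18 receptor (chromosome 1, 40465552 to 40500854), had 4.34, 2.89 and 2.78 CPM with CpdA, against 5.29, 4.27 and 4.29 CPM with medium. CpdA replicate 1 lay above 2 medium libraries, so the groups overlapped. The log2 fold change was -0.49 ± 0.17 (SE; edgeR adjusted p = 0.0206), the largest of the 10 genes and the least precise, with an interval from 43.5% to 9.94% lower. It rested on 70 to 107 reads per library and missed the threshold with DESeq2 (adjusted p = 0.0941), without medium replicate 1 (edgeR adjusted p = 0.127), without CpdA replicate 2 (0.105) and without CpdA replicate 3 (0.135). Cxcr3, a homing receptor for the chemokines CXCL9, CXCL10 and CXCL11 and a direct target of T-bet (chromosome X, 101731535 to 101734269), had 8.83, 9.13 and 9.52 CPM with CpdA, against 10.1, 9.43 and 7.44 CPM with medium. All CpdA values lay inside the range of the medium values, and the log2 fold change was 0.02 (edgeR adjusted p = 0.892) with an interval from 12.6% lower to 18.4% higher.

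Stat4, the transducer of the IL-12 signal (chromosome 1, 51987148 to 52107189), had 32.7, 34.6 and 32.0 CPM with CpdA, against 38.1, 35.9 and 40.3 CPM with medium. The groups did not overlap, though CpdA replicate 2 and medium replicate 2 were 1.35 CPM apart. The log2 fold change was -0.21 ± 0.06 (SE; edgeR adjusted p = 0.00363), or 13.7% lower, with an interval from 20.4% to 6.42% lower. Without medium replicate 3 it was -0.17 and missed the threshold (edgeR adjusted p = 0.0536). A transcript named Gm28177 on the same strand covers 1033 of the 3872 exon bases of Stat4 in the GENCODE annotation. Reads there cannot be assigned to either by sequence. The deposited coordinates also list a transcript over Stat4 on that strand, RP24-194N4.4. It had 46 counts over the CpdA libraries and 39 over the medium libraries.

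The transcription factor genes did not pass the test. Tbx21 (chromosome 11, 97098071 to 97115331) had 56.3, 53.9 and 61.6 CPM with CpdA, against 54.7, 61.0 and 52.1 CPM with medium. The libraries of both groups were interspersed, with a coefficient of variation of 6.89% with CpdA and 8.17% with medium where counting alone gives 2.69% and 2.83%. Its log2 fold change was 0.02 (edgeR adjusted p = 0.791) with an SE of 0.05. Hlx (chromosome 1, 184727140 to 184732619) had 11.8, 10.3 and 10.7 CPM with CpdA, against 12.3, 11.7 and 11.2 CPM with medium. In 2 of 3 CpdA libraries it lay below all medium libraries, and the log2 fold change of -0.11 did not pass (edgeR adjusted p = 0.401, interval from 18.7% lower to 5.66% higher).

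The 3 chemokine genes lie in the CC chemokine cluster of chromosome 11. Ccl4 (83662584 to 83664683) had 19.4, 18.3 and 18.8 CPM with CpdA, against 20.8, 22.5 and 21.2 CPM with medium, with all CpdA libraries lower. Its log2 fold change was -0.20 ± 0.07 (SE; edgeR adjusted p = 0.0253), or 13.0% lower. The call was lost with DESeq2 (adjusted p = 0.0947), without medium replicate 2 (edgeR adjusted p = 0.108), without medium replicate 3 (0.0539), without CpdA replicate 2 (0.0817) and without CpdA replicate 3 (0.0737). Ccl3 (83647844 to 83649355), the gene 13.2 kb away on the opposite strand, had 8.27, 8.48 and 8.45 CPM with CpdA, against 9.93, 10.2 and 9.06 CPM with medium. Its CpdA libraries were also all lower and its log2 fold change of -0.22 ± 0.10 (SE) was as large as that of Ccl4, but with 177 to 240 reads per library it did not pass (edgeR adjusted p = 0.0982).

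Ccl5 (83525778 to 83530518), 117 kb from Ccl3, had 24.0, 25.4 and 25.9 CPM with CpdA, against 21.0, 23.6 and 24.0 CPM with medium. In 2 of 3 CpdA libraries it lay above all medium libraries. The log2 fold change was 0.12 ± 0.07 (SE; edgeR adjusted p = 0.166), with an interval from 0.926% lower to 19.8% higher. Transcripts of Ccl3, Ccl4 and Ccl5 share 0 windows of 50 bases with each other or with any other gene in the GENCODE transcripts. Only exact windows on the transcripts' own strand were searched, and whether all reads of these genes can be told apart was not tested.

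These chemokines are also made by natural killer (NK) cells, CD8+ T cells and myeloid cells, whose markers were therefore summed. The 2 CD8+ T cell markers, Cd8a and Cd8b1, summed to 7.33 to 9.4 CPM with CpdA and 7.99 to 8.84 CPM with medium, and 0 of the 2 changed. All 8 NK cell markers were listed and summed to 49.5 to 52.2 CPM with CpdA and 52.3 to 56.9 CPM with medium, of which the granzyme gene Gzma made 49.1 and 51.9 CPM. The NK receptor genes Ncr1, Klrb1c and Klra8 together had 1 count over the CpdA libraries, all of Ncr1, and 2, 4 and 1 counts over the medium libraries. The receptor gene Klrk1 had more, with 88 counts over the CpdA libraries and 85 over the medium libraries, and did not pass (edgeR adjusted p = 0.858). Klre1, Klrb1b and Klra4 had 11, 8 and 3 counts over the CpdA libraries and 21, 17 and 7 over the medium libraries. Of 12 macrophage and monocyte markers 11 were listed and summed to 16.8 to 20.0 CPM with CpdA and 14.5 to 16.0 CPM with medium. The largest part was Ly6c2, at 10.3 CPM with CpdA and 7.03 CPM with medium. Of 3 tested, 2 were higher (Ly6c2 and Mpeg1) and 1 was lower (Cd68), where 33.2% of all tested genes changed. The Cd68 call was lost without medium replicate 1 (edgeR adjusted p = 0.143), medium replicate 3 (0.117), CpdA replicate 2 (0.0921) or CpdA replicate 3 (0.123). The defining genes Lyz2 and Csf1r had 6 and 8 counts over the CpdA libraries and 4 and 6 over the medium libraries. Of 9 dendritic cell markers 8 were listed and summed to 205 to 213 CPM with CpdA and 222 to 228 CPM with medium, nearly all of it from the class II gene H2-Ab1 (110 CPM with CpdA and 142 CPM with medium), which fell, and the invariant chain gene Cd74 (90.6 CPM with CpdA and 76.3 CPM with medium), which rose. The other 3 tested, Flt3, Zbtb46 and Itgax, had log2 fold changes of 0.20, 0.23 and 0.25 and did not pass (edgeR adjusted p = 0.478, 0.293 and 0.638). Xcr1, Clec9a and Siglech had too few counts to test, with 7, 0 and 2 over the CpdA libraries and 12, 3 and 1 over the medium libraries. The part of these other cell types in the chemokine and Ifng values was not tested.

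B cell markers summed to 34.3 to 39.7 CPM with CpdA and 33.6 to 40.2 CPM with medium. Of 6 tested, 1 (Ms4a1) was higher, where 16.5% of all tested genes rose. Of 6 neutrophil markers 3 were listed, and they summed to 5.93 to 6.35 CPM with CpdA and 7.35 to 8.35 CPM with medium. Most of that sum was Ly6g, at 5.06 CPM with CpdA and 5.91 CPM with medium. Ly6g did not pass (log2 fold change -0.23, edgeR adjusted p = 0.192), and Cxcr2 was lower. The Ms4a1 call was lost without medium replicate 2 (edgeR adjusted p = 0.22), CpdA replicate 1 (0.135) or CpdA replicate 2 (0.104), and the Cxcr2 call without medium replicate 2 (0.0536) or CpdA replicate 3 (0.0886). Platelet markers are of interest because platelets carry CCL5, and 2 of 5 were listed. They summed to 1.98 to 2.23 CPM with CpdA and 1.82 to 3.06 CPM with medium. The defining gene Pf4 had 1 count over the CpdA libraries and 3 over the medium libraries. Of 6 mast cell and basophil markers only 2 were listed, and they summed to at most 0.0385 CPM with CpdA and 0.0988 CPM with medium. Of 5 gamma delta T cell markers 3 were listed, and they summed to at most 0.28 CPM with CpdA and 0.525 CPM with medium.

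Ratios of gene pairs within a library do not depend on how libraries are scaled to each other, and 10 pairs were compared, of which 9 are described. The test was an exact permutation of the libraries, two-sided, which cannot go below p = 0.1 in a design of 3 against 3. Ratios are log2 values of counts with 0.5 added, and gene length sets their absolute size, so only differences between groups are read. The ratio of Ifng to the Th2 cytokine gene Il4 was -0.13, 0.02 and -0.18 in the CpdA libraries, against 0.77, 0.81 and 0.85 in the medium libraries. The groups lay apart by -0.91 (exact permutation p = 0.1; adjusted over the 10 pairs 0.2), which is the largest difference of the 10 pairs. It joins the lower Ifng to a higher Il4 (36.8 ± 1.5 CPM with CpdA and 22.9 ± 0.2 CPM with medium; SD, n = 3 each).

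Il12rb2 to Il12rb1, the 2 chains of the IL-12 receptor, averaged 1.157 ± 0.003 with CpdA and 1.23 ± 0.04 with medium (SD, n = 3 each), also with no overlap (difference -0.07, exact permutation p = 0.1; adjusted 0.2). Il18r1 to Il18rap, the 2 chains of the IL-18 receptor, averaged 1.28 ± 0.39 with CpdA and 2.03 ± 0.24 with medium, with no overlap (difference -0.74, exact permutation p = 0.1; adjusted 0.2), though Il18rap had only 97 counts over the CpdA libraries and 75 over the medium libraries.

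Within the chemokine cluster, Ccl5 to Ccl3 averaged 1.58 ± 0.04 with CpdA and 1.23 ± 0.16 with medium, higher with CpdA in every library (difference 0.34, exact permutation p = 0.1; adjusted 0.2). Ccl4 to Ccl3 overlapped between groups (1.16 ± 0.06 with CpdA and 1.15 ± 0.08 with medium; exact permutation p = 0.7). The ratio of Ifng to Tbx21 was -0.69, -0.59 and -0.93 with CpdA, against -0.48, -0.62 and -0.33 with medium, and overlapped (difference -0.26, exact permutation p = 0.2; adjusted 0.333). The ratios of Cxcr3 and of Hlx to Tbx21 and of Tbx21 to Gata3 overlapped as well (exact permutation p = 1, 0.3 and 0.3).

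**Figure D3:**
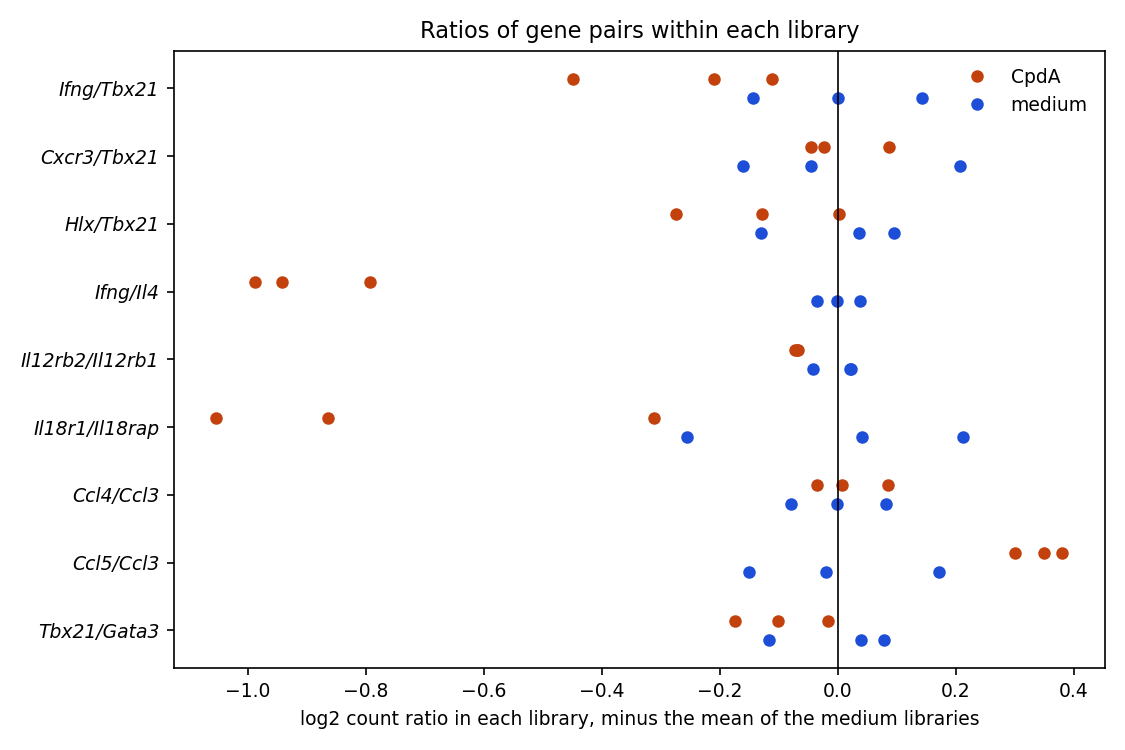
Each row gives the log2 count ratio of a gene pair in every library after subtracting the mean of the 3 medium libraries, with CpdA in orange and medium in blue. The groups are apart for Ifng to Il4, Il12rb2 to Il12rb1, Il18r1 to Il18rap and Ccl5 to Ccl3, and overlap for the other 5 pairs.

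Beyond the 10 genes, the IL-12 receptor and STAT4 signalling list, which also holds genes of other cytokine receptors, had 5 of 10 tested genes lower and 0 higher. Its median log2 fold change was -0.11, and 33.2% of all genes changed. The 5 that fell, Stat3, Il6st, Ifnar1, Il21r and Il27ra, were genes of those other receptors and their signalling. The partner chain Il12rb1 (230 CPM with CpdA and 232.9 CPM with medium) and the kinase genes Jak2 and Tyk2 did not pass, with log2 fold changes of -0.03, -0.03 and -0.10 (edgeR adjusted p = 0.52, 0.433 and 0.0761). The genes that fell furthest were Stat3, which serves the IL-6 and IL-21 receptors (-0.31), Il6st, the shared chain of the IL-6 family (-0.27), Ifnar1, a chain of the type I interferon receptor (-0.17), and Il21r (-0.13). The IL-18 receptor partner and MyD88 list had 1 of 14 tested genes higher and 3 lower. The adaptor gene Myd88 rose (0.28), the kinase gene Irak2 (-0.36), the inhibitory receptor gene Sigirr (-0.14) and Traf6 (-0.09) fell, and Il18rap (0.23) and the IL-33 receptor gene Il1rl1 (-0.08) did not pass (edgeR adjusted p = 0.582 and 0.689). The Traf6 call was lost without medium replicate 1 (edgeR adjusted p = 0.105), without medium replicate 3 (0.104), without CpdA replicate 1 (0.141) and without CpdA replicate 3 (0.0797).

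On the interferon gamma side, 1 of 10 receptor and signalling genes rose and 4 fell, where 33.2% of all tested genes changed. Ifngr1, the ligand-binding chain, had 65.4, 65.5 and 66.4 CPM with CpdA, against 81.5, 79.4 and 83.2 CPM with medium, and fell by 0.32 on the log2 scale (edgeR adjusted p = 9.79e-08). The second chain gene Ifngr2 had -0.14 and did not pass (edgeR adjusted p = 0.0654), though it did without medium replicate 2 (0.0237) and without CpdA replicate 1 (0.0299). The phosphatase gene Ptpn6 (-0.27) and the suppressor gene Socs3 (-0.16) fell, whereas the transcription factor gene Irf1 rose (0.18).

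Genes that interferon gamma induces went mostly the other way from Ifng. Of 31 tested, 18 rose and 3 fell, with a median log2 fold change of 0.17, where 16.5% of all tested genes rose. Many of them also respond to type I interferon. The antigen processing gene Tapbp rose by 0.35, the class I regulator Nlrc5 by 0.35, the immunity GTPase gene Irgm1 by 0.40 and Irf1 by 0.18, while the transcription factor gene Irf8 fell by 0.50. The CXCR3 ligand gene Cxcl10 rose by 0.84 (edgeR adjusted p = 0.0163) at a low level, with 1.73, 1.70 and 2.10 CPM with CpdA and 1.43, 0.973 and 0.700 CPM with medium. It missed the threshold without medium replicate 3 (edgeR adjusted p = 0.116), without CpdA replicate 3 (0.0825) and with DESeq2 (0.0635).

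Of 16 tested transcription factor genes that act with or beside T-bet, 8 fell and 4 rose, where 16.7% of all tested genes fell and 16.5% rose. Bhlhe40, which sustains interferon gamma production, had 534.1, 519.0 and 513.6 CPM with CpdA, against 704.4, 699.6 and 700.7 CPM with medium, and fell by 0.44 on the log2 scale (edgeR adjusted p = 3.55e-16). Runx3, a partner of T-bet at Ifng, fell by 0.24 (250.4 ± 10.2 CPM with CpdA and 293.8 ± 2.7 CPM with medium; SD, n = 3 each), and Ets1, another cofactor of T-bet, by 0.26. Id2, an inhibitor of E proteins, rose by 0.30. Eomes, the relative of T-bet, stood at 1.34 and 1.24 CPM and had 0.10 (edgeR adjusted p = 0.824).

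Of 11 regulators that oppose the Th1 fate 3 rose and 4 fell, against the same background shares. Gata3, the Th2 regulator, rose by 0.12 (edgeR adjusted p = 0.00447; without medium replicate 1, 0.0603). Among those that fell, the gene of the IL-4 transducer, Stat6, fell by 0.22, Socs3 by 0.16 and Ikzf1 by 0.16.

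Of the 28 other chemokine genes looked for, 24 were listed and 10 had enough counts to test. Of these 10, 1 rose (Cxcl10) and 1 fell (Ccl27a, -0.42, edgeR adjusted p = 0.0319). That is 20%, below the 33.2% of all tested genes that changed. Ccl27a missed the threshold without medium replicate 1, without medium replicate 3, without CpdA replicate 1 and with DESeq2 (adjusted p = 0.0796, 0.186, 0.248 and 0.111). Xcl1, a chemokine often made together with CCL3 and CCL4, had 9 counts over the CpdA libraries and 16 over the medium libraries. Ccr1, a receptor gene for CCL3 and CCL5, had 76 counts in each group and a log2 fold change of -0.13 (edgeR adjusted p = 0.781).

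The other effector cytokine genes of Th1 cells went both ways, with 4 of 9 higher and 3 lower, where 33.2% of all tested genes changed. Tnf rose by 0.30, with 35.8, 31.2 and 35.0 CPM with CpdA, against 26.5, 28.4 and 27.3 CPM with medium (edgeR adjusted p = 0.000179), and Lta, its neighbour in the genome and a related cytokine, rose by 0.23. Ltb, the membrane partner of lymphotoxin alpha, had a log2 fold change of -0.35. Il3, at 1.30 CPM with CpdA and 4.35 CPM with medium, had -1.75, and Il2, the T cell growth factor gene, -0.80. Csf2 rose by 0.78 (edgeR adjusted p = 0.0229), at 2.52, 1.31 and 2.66 CPM with CpdA and 0.889, 1.65 and 1.14 CPM with medium, and its groups overlapped. It missed the threshold with DESeq2 (adjusted p = 0.0781) and without any 1 of medium replicate 1 (edgeR adjusted p = 0.118), medium replicate 3 (0.0783), CpdA replicate 1 (0.104) and CpdA replicate 3 (0.159).

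**Figure D4:**
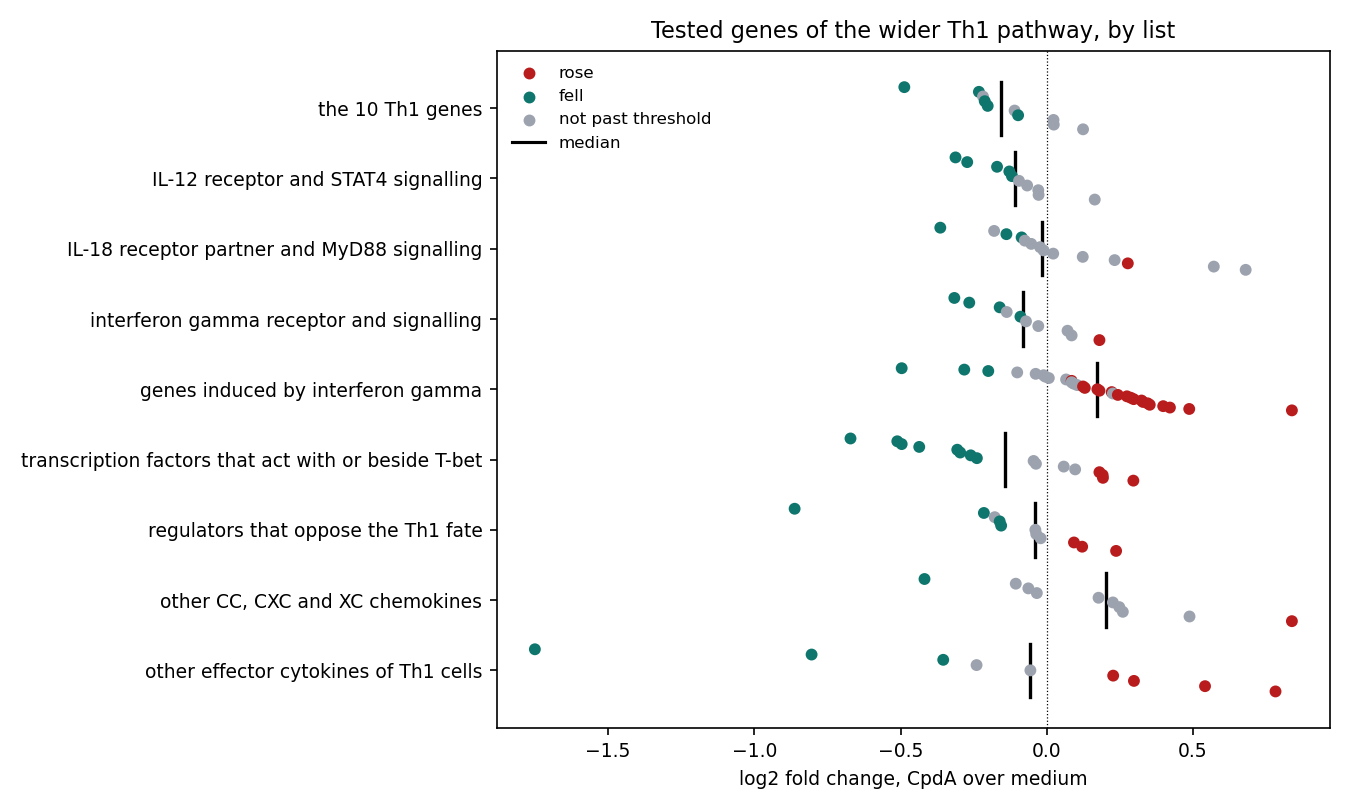
Each row is a gene list and each point a tested gene at its log2 fold change of CpdA over medium, red where it rose, green where it fell and grey where it did not pass the threshold, with a black bar at the list's median. The 10 Th1 genes have a median of -0.16 and the genes induced by interferon gamma a median of 0.17.

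The chromosomal neighbours of the 10 genes were read from the deposited coordinates, 3 genes on each side. Of 50 such neighbours 29 had enough counts to test, of which 6 rose and 3 fell. That is 31%, close to the 33.2% of all genes. Beside Ifng, the cytokine gene Il22, 231 kb away, rose by 0.54 (5.45 CPM with CpdA and 3.71 CPM with medium; edgeR adjusted p = 0.00566). It missed the threshold without medium replicate 1 (edgeR adjusted p = 0.0533) and without CpdA replicate 3 (0.0888). Beside Tbx21, the TBK1 adaptor gene Tbkbp1 fell by 0.25 and the importin gene Kpnb1 rose by 0.10. Nabp1 (0.13) and the long noncoding RNA RP23-273G4.1 (0.19), near Stat4, rose, as did Taf15 near Ccl5 (0.16). The call for RP23-273G4.1 was lost without medium replicate 2 (edgeR adjusted p = 0.121). Ogt near Cxcr3 (-0.23) and Mfsd9 near Il18r1 (-0.49) fell. Around Il18r1, none of the IL-1 receptor family genes Il1r1, Il1rl2, Il1rl1 and Il18rap passed, with log2 fold changes from -0.08 to 0.57. Il1rl2, at 0.57, passed without CpdA replicate 2 (edgeR adjusted p = 0.0472).

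**Figure D5:**
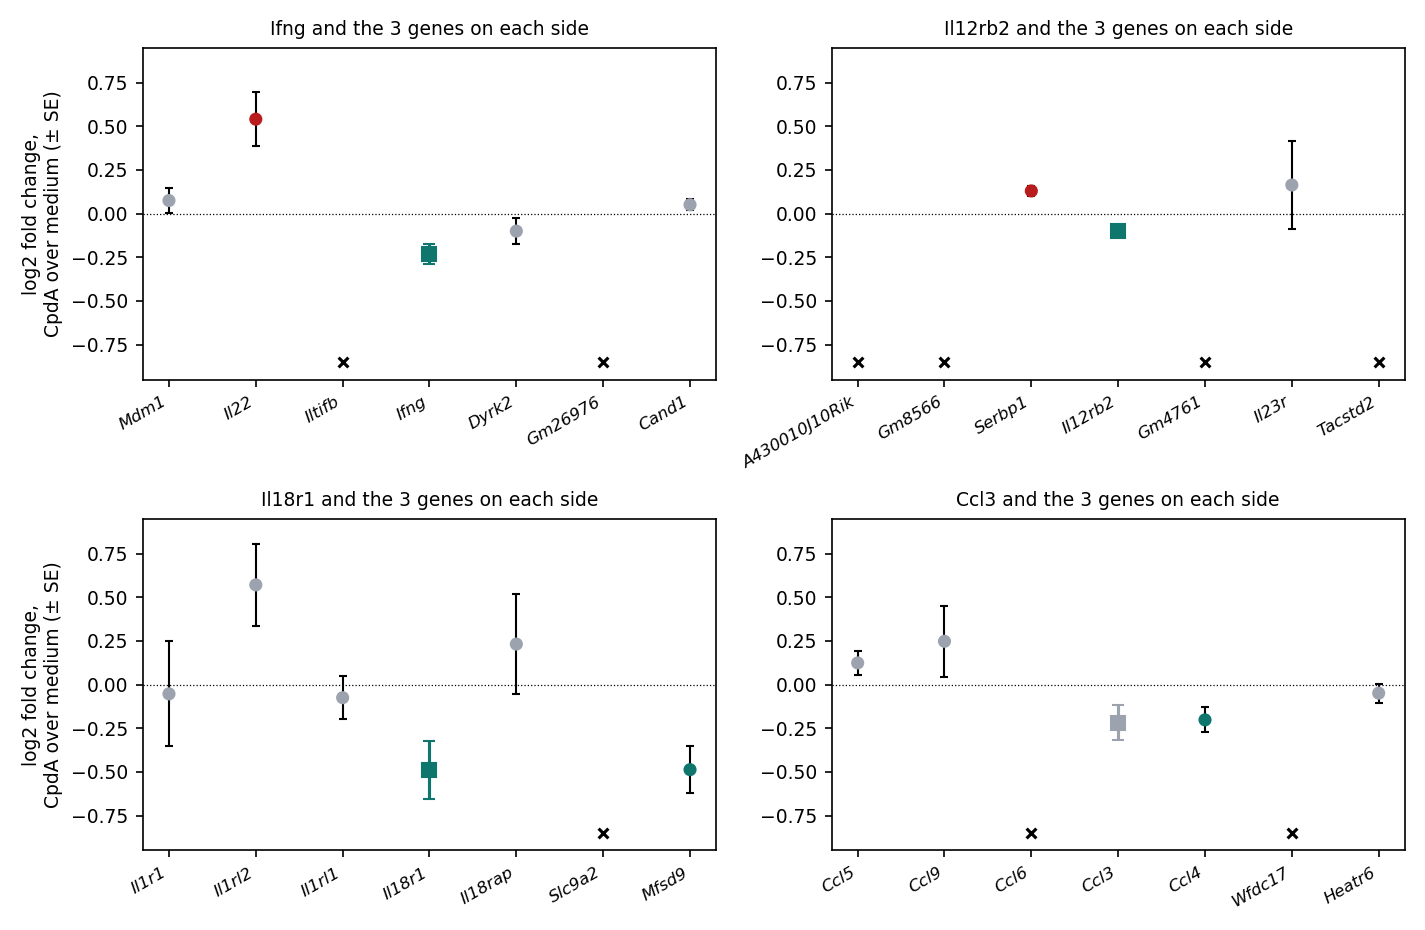
Each panel places a Th1 gene (square) among the 3 genes on each side in chromosomal order, with the log2 fold change of CpdA over medium and its SE, red for genes that rose, green for genes that fell, grey for those not past the threshold and a cross for genes with too few counts to test. Il12rb2 fell by 0.10 beside Serbp1 at 0.13, and Ifng fell by 0.23 while Il22 rose by 0.54.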

How the data were processed

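Raw read counts for each gene and library were deposited, per the file headers, beside FPKM values of the authors. Dividing a count by the deposited gene length and the library total returns the deposited FPKM, to a relative difference of at most 4.99e-06. CASAVA 1.8 and the builds GRCm38 and mm10 are named in the submitters' processing notes. The sources used here do not give the aligner, counter, annotation or strand setting.

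Genes passing filterByExpr of edgeR 4.0.16 (minimum count 10, minimum total 15; 13507 genes) were tested in R 4.3.3 with the quasi-likelihood test of edgeR, TMM scaling, robust dispersions and no covariates, with Benjamini-Hochberg adjustment over all of them. A log2 fold change is CpdA over medium, and CPM uses the library total. Intervals for fold changes are 95% intervals of that fit, and CPM and FPKM are mean ± SD over 3 libraries. Library pairs within a group differed by more than sampling noise (chi-square per degree of freedom 2.04 to 3.65).

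The members, the gene and marker lists and the gene pairs were chosen with earlier results of these data known. All 10 members are named, from each list up to 4 changed genes with the smallest p, a fixed set whether changed or not, changed chromosomal neighbours and the 3 genes most like Ifng. Results for 3 genes and 1 gene pair under these rules are not reported here. Other genes named (markers, IL-1 receptor family neighbours) were picked after their values were seen. Alternatives were other scalings, DESeq2 1.42.0, limma-voom (limma 3.58.1), other count filters, a replicate block and leaving out each library. The steps were checked on simulated counts. Promoter letters come from RefSeq.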

Additional observations from a re-analysis of the deposited data

How the results depend on the processing

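Of the 10 Th1 genes, 5 changed also with DESeq2 size factors, with library size alone, with limma-voom, with no count filter and with the replicate block, 4 with the stricter filter of 5 CPM in 3 libraries (9 genes tested, since Il18r1 was removed) and 3 with DESeq2. Leaving out 1 library gave 3 to 5. Ifng and Il12rb2 stayed past the threshold in all 13 alternatives (log2 fold change -0.26 to -0.19 and -0.12 to -0.09), Stat4 in 12 of 13, Ccl4 in 8 of 13 and Il18r1 in 8 of 12. Ccl3, Ccl5, Cxcr3, Hlx and Tbx21 passed in none of 13, and the sign turned in some for Cxcr3 (-0.09 to 0.11) and Tbx21 (-0.03 to 0.09). Over all genes, 3448 (DESeq2) to 4538 (library size alone) changed, and 3660 to 4336 without 1 library. With the stricter filter, 4 of the 5 effector cytokine genes left to test changed, Tyk2 passed (adjusted p = 0.0403) and so did Ifngr2 (0.0429). Traf6 missed the threshold with library size alone (0.0654), DESeq2 (0.075), no filter (0.08) and the replicate block (0.0944), and Cd68 with DESeq2 (0.138), no filter (0.0613) and the block (0.0544). Replicate numbers were not used as pairs in the main fit. Deviations of same-numbered libraries correlated at -0.0213, -0.0147 and -0.000561. With 3 libraries per group such values cannot decide whether same-numbered libraries share a culture or mouse. The block gave 3936 changed genes. Depth limits Il18r1 most, where counting alone gives a coefficient of variation of 11.2% with CpdA and 9.9% with medium, followed by Ccl3 (7.01% and 6.8%) and Cxcr3 (6.71% and 7.09%). The observed value for Il18r1 was above that of counting alone, at 26.2% with CpdA and 12.6% with medium.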

Other observations

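The 3 genes whose log2 CPM followed Ifng most closely over the 6 libraries were Gimap5, a GTPase gene of lymphocytes (Pearson r = 0.998), Mthfs, an enzyme gene of folate metabolism (0.992), and Pan2, a subunit of a deadenylase (0.99). They fell with CpdA, by 0.24, 0.62 and 0.15 on the log2 scale (edgeR adjusted p = 8.71e-06, 0.00837 and 0.0231). Mthfs and Pan2 missed the threshold without medium replicate 3 (edgeR adjusted p = 0.0599 and 0.0892) and without CpdA replicate 3 (0.0526 and 0.162), and Pan2 with DESeq2 (0.0803). With 6 libraries in 2 groups, 718 genes had an r above 0.9 with Ifng and 143 above 0.95, and the points share the group difference and the library depth, so these are values of likeness only.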
